A study of Mus musculus with 6 samples.

Results

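Expression of 10 genes of the olfactory and nasal mucosa was examined in RNA sequencing of the mouse temporomandibular joint, the joint between the lower jaw and the skull: Omp, Gfy, Obp1a, Obp1b, Obp2a, Obp2b, Bpifa1, Bpifb4, Dmbt1 and Reg3g, which are 10 of the 22032 genes in the count table. They were chosen by their symbols, with their low counts in the Igf2bp2 knockout already known, so the difference between knockout and wild type in these 10 genes is given as a description and was not tested. Libraries made with an mRNA isolation kit were sequenced from joints of Igf2bp2-/- mice (KO, 3 libraries) and of wild-type littermates (WT, 3 libraries), all at the age of 10 weeks. The protein targeted in these mice, IGF2BP2, binds mRNA, also at the m6A mark. The knockout is given only as Igf2bp2-/- in the sources used here, with no deleted exon, cell type restriction or strain, and nothing says that each library came from a separate animal, so the p-values given here reflect the spread among these samples only, and that spread may be technical.

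The olfactory mucosa lines the roof of the nasal cavity. Its sensory neurons carry odorant receptors on cilia and signal through a G protein, adenylyl cyclase and a cyclic-nucleotide-gated channel, while sustentacular cells and Bowman's glands beneath them supply detoxifying enzymes and mucus. Nasal glands and the respiratory epithelium secrete odorant-binding proteins, which are small lipocalins that carry hydrophobic molecules through mucus, together with BPI-fold proteins, mucins and antimicrobial lectins.

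Total counts ranged from 28551236 to 35094127 per library, of which 13 mitochondrial genes took 85.3% to 86.0% in KO and 90.6% to 90.9% in WT. The libraries KO 1 and KO 3 were as close as counting noise allows, with an observed variance 0.941 times the counting variance of read pairs in the median gene. For WT 2 and WT 3 the value was 0.964, and it was 1.31 to 1.63 for the other pairs of a group. The pairs KO 1 and KO 3 and WT 2 and WT 3 thus differed by less than the sampling noise in the median gene. Their mean ratios over genes were 1.18 and 1.08, against 2.15 to 2.89 for the other pairs. Each of these close pairs was summed and counted as 1 sample, which leaves n = 2 samples per group. Igf2bp2 itself had 13, 14 and 10 counts in KO 1 to 3, against 38, 20 and 24 in WT 1 to 3 (log2 fold change -1.80, edgeR FDR 0.00589). Of the joint's own genes, Col1a1 and Prg4, which encode type I collagen and the lubricant lubricin, had 528 and 46.0 CPM (counts scaled by library size and TMM factor) in KO and 245 and 11.3 CPM in WT, while the cartilage genes Acan and Col2a1 were low, at 0.697 and 1.25 CPM in KO and 0.927 and 1.47 CPM in WT.

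Promoter sequences are shown for 5 of the genes to show a neuronal gene of the set and its 2 pairs of lipocalins. RefSeq promoter windows (build GRCm38.p6, 250 bases before to 50 after each annotated start) were found for 8 of the 10 genes by symbol. The 250 bases before the start are given 5′ to 3′ on the gene's strand. For Gfy, capitals mark the palindrome bound by the EBF (Olf-1) family of transcription factors, which act in olfactory neurons and in B lymphocytes. For the Obp genes, capitals mark the TATA box, to which the general transcription machinery binds. The windows lie at chr7:45179598-45179847 (minus strand) for Gfy, chrX:78091375-78091624 (minus strand) for Obp1a, chrX:78186558-78186807 (plus strand) for Obp1b, chr2:25699824-25700073 (plus strand) for Obp2a and chr2:25736757-25737006 (plus strand) for Obp2b.
Gfy: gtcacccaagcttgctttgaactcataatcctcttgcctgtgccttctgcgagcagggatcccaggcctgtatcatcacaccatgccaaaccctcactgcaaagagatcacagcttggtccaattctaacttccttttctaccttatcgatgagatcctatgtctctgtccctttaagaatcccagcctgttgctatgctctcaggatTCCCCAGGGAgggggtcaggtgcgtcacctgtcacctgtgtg
Obp1a: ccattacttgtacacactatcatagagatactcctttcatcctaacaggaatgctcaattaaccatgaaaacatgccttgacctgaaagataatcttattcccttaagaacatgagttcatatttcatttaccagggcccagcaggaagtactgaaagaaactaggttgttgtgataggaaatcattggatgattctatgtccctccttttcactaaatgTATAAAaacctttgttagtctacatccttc
Obp1b: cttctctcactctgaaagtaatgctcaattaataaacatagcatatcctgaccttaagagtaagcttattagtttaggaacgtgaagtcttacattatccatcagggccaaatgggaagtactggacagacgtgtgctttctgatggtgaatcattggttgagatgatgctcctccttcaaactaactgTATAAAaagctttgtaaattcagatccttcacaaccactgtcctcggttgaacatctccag
Obp2a: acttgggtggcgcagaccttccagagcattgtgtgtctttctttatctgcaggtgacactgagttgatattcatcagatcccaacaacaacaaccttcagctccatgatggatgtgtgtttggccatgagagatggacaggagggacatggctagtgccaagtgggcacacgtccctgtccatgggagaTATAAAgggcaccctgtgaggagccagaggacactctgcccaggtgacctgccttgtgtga
Obp2b: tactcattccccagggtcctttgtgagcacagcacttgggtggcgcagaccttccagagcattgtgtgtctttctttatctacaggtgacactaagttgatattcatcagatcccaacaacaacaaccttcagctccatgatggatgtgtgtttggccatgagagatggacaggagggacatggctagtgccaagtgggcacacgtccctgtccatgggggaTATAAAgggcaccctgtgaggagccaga

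The EBF palindrome, searched on both strands as TCCC and GGGA with any 2 bases between them, was found once in Gfy, 42 bases before the annotated start, and in none of the other 7 windows. It was present in 0.904% of all 32851 RefSeq windows. The TATA box, searched as TATAAA on both strands, was found in 6 of the 8 windows (Obp1a, Obp1b, Obp2a, Obp2b, Bpifa1 and Reg3g), and in 13.6% of all windows. In Obp1a and Obp2b it began 30 and 28 bases before the annotated start, and in Obp1b and Obp2a 61 bases before it. The Obp2a and Obp2b windows were nearly the same sequence, with 263 of 267 aligned bases identical, whereas Obp1a and Obp1b shared 181 of 269. Both motifs were chosen after the expression values had been seen.

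All 10 genes had lower levels in every KO library than in any WT library. Summed over the set, and scaled to the counts of nuclear genes alone, their level was 52.1, 42.7 and 52.6 CPM in KO 1 to 3, against 381, 413 and 423 in WT 1 to 3. The median log2 fold change was -3.26 over the 10 genes and -0.01 over all 14632 tested genes. Genes whose KO libraries all lay below the WT libraries made up 19.1% of the tested genes and those with KO above WT 19.2%, while genes called lower at an edgeR false discovery rate (FDR) under 0.05 made up 8.48%. Since the genes were chosen from this contrast, nothing is read from their count against these shares. In bulk tissue, fewer cells of a type and less RNA per cell cannot be told apart.

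**Figure D1:**
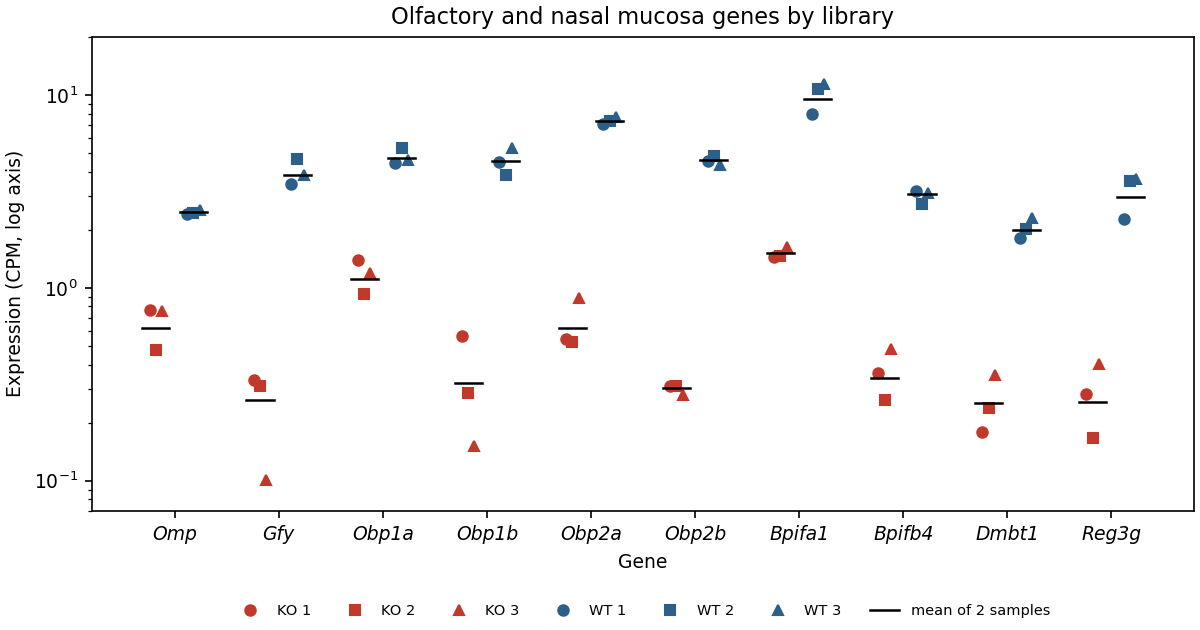
Expression in CPM (log axis) of the 10 genes in each library, with KO 1 to 3 in red left of WT 1 to 3 in blue; bars are means over the 2 samples of a group. For every gene the KO points lie below the WT points, with the narrowest separation for Omp and the widest for Gfy and Obp2b.

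Omp encodes olfactory marker protein, the classical marker of mature olfactory sensory neurons. Its counts were 30, 20 and 30 in KO 1 to 3, against 71, 56 and 65 in WT 1 to 3, or a mean ± SD of 0.622 ± 0.206 CPM in KO and 2.46 ± 0.0499 CPM in WT over n = 2 samples per group. The groups did not overlap, KO 2 was the lowest library, and the log2 fold change of -1.93 (3.81-fold lower in KO) was the smallest of the 10 genes. Gfy encodes a Golgi protein made in olfactory sensory neurons. It had 13, 13 and 4 counts in KO and 101, 106 and 99 in WT, which is 0.264 ± 0.0650 CPM in KO and 3.85 ± 0.551 CPM in WT and 15.2-fold lower in KO (log2 -3.92). Among all tested genes, 131 had a log2 fold change as low as that of Omp or lower, and 10 as low as that of Gfy. The count of Omp over that of Gfy was 2.31, 1.54 and 7.50 in KO 1 to 3, against 0.703, 0.528 and 0.657 in WT 1 to 3, so the 2 neuronal genes did not keep 1 ratio. The KO 3 value rests on only 4 Gfy counts.

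The 4 odorant-binding protein genes form 2 pairs of neighbours. Obp2a had 21, 22 and 35 counts in KO and 208, 168 and 198 in WT (0.620 ± 0.137 CPM in KO and 7.34 ± 0.315 CPM in WT, 11.4-fold lower in KO). Obp2b had 12, 13 and 11 counts in KO and 134, 110 and 112 in WT (0.302 ± 0.0106 CPM in KO and 4.59 ± 0.00121 CPM in WT, 15.2-fold lower in KO). The Obp2a to Obp2b ratio of counts was 1.75, 1.69 and 3.18 in KO and 1.55, 1.53 and 1.77 in WT. This pair thus had almost the same ratio in 5 of the 6 libraries, KO 3 being the exception.

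Obp1a had 54, 39 and 47 counts in KO and 130, 122 and 119 in WT (1.11 ± 0.258 CPM in KO and 4.71 ± 0.375 CPM in WT, 4.15-fold lower in KO). Obp1b had 22, 12 and 6 counts in KO and 131, 88 and 137 in WT (0.322 ± 0.0515 CPM in KO and 4.57 ± 0.118 CPM in WT, 13.7-fold lower in KO). The Obp1a to Obp1b ratio of counts was 2.45, 3.25 and 7.83 in KO 1 to 3, against 0.992, 1.39 and 0.869 in WT 1 to 3, so the pair did not keep 1 ratio between the groups. Between the close libraries KO 1 and KO 3, only Obp1b had a variance ratio above the 95% point of counting noise. Its counts there were 22 and 6, with a ratio of 4.70. Its log2 fold change of -3.78 was at -4.35 without KO 1 and -3.43 without KO 3. The longest GENCODE transcripts of Obp1a and Obp1b are 73.7% identical over 754 aligned bases, and none of the 708 stretches of 50 bases in Obp1a occurs in Obp1b. Obp2a and Obp2b transcripts are 75.8% identical over 707 bases, and 81 of 695 such stretches of Obp2a also occur in Obp2b, so reads may be shared within this second pair, and its split is uncertain.

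Bpifa1 encodes SPLUNC1, a BPI-fold protein secreted into the liquid on the airway surface. It had 56, 62 and 64 counts in KO and 234, 245 and 293 in WT, or 1.51 ± 0.0426 CPM in KO and 9.56 ± 2.20 CPM in WT, which is 6.37-fold lower in KO. The KO libraries lay close together, while WT 1, at 7.97 CPM, was below WT 2 and WT 3, at 10.7 and 11.4 CPM. The variance ratio of WT 1 and WT 3 was 5.95, the highest of any gene and pair in the set. Bpifb4, a longer BPI-fold protein, had 14, 11 and 19 counts in KO and 93, 62 and 80 in WT (0.342 ± 0.114 CPM in KO and 3.06 ± 0.176 CPM in WT, 8.44-fold lower in KO).

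Dmbt1 encodes a large scavenger-receptor glycoprotein of mucosal surfaces, known in humans also as salivary agglutinin. It had 7, 10 and 14 counts in KO and 53, 46 and 59 in WT (0.253 ± 0.0218 CPM in KO and 1.99 ± 0.252 CPM in WT, 7.74-fold lower in KO, with a log2 fold change of -2.95 that was at -3.23 without KO 3). Reg3g, a bactericidal C-type lectin best known from the gut, had 11, 7 and 16 counts in KO and 67, 82 and 94 in WT (0.256 ± 0.127 CPM in KO and 2.96 ± 0.950 CPM in WT, 10.8-fold lower in KO). Over the 2 samples of a group, Reg3g had the largest SD relative to its mean, 49.4% in KO and 32.1% in WT. Its WT 1 level of 2.28 CPM was below WT 2 and WT 3 at 3.58 and 3.65 CPM. A search by symbol found no other gene of the Reg lectin family in the count table.

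Per length of the longest transcript, the lipocalins and Bpifa1 stood above the other genes in WT. Obp2a had 0.834 ± 0.184 CPM per kilobase in KO and 9.86 ± 0.423 in WT, and Bpifa1 1.36 ± 0.0385 in KO and 8.64 ± 1.99 in WT. In WT they were followed by Obp2b at 6.26 ± 0.00165, Obp1a at 6.23 ± 0.496 and Obp1b at 5.73 ± 0.148. The remaining genes were lower in WT, with Gfy at 2.08 ± 0.298, Reg3g at 1.42 ± 0.455, Bpifb4 at 1.26 ± 0.0725, Omp at 1.15 ± 0.0233 and Dmbt1 at 0.318 ± 0.0401 CPM per kilobase (SD, n = 2). Neighbours in this order were farther apart than the sum of their SDs only at the steps from Bpifa1 to Obp2b, Obp1b to Gfy, Bpifb4 to Omp and Omp to Dmbt1. In KO the highest value was that of Obp1a, 1.47 ± 0.341.

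The genes beside the 10 on the chromosome were read next, a comparison chosen after the values had been seen, using the gene order of RefSeq GRCm38.p6 and 5 protein-coding genes on each side. Of 39 tested neighbours, 9 were lower in KO, 3 were higher and 27 did not pass (edgeR, FDR 0.05, against 8.48% lower and 9.15% higher among all tested genes, or 17.6% together). All 9 lower ones lay in the 3 clusters that hold the BPI-fold, Obp1 and Obp2 genes. None of the 7 tested neighbours of Omp, the 7 of Gfy, the 4 of Reg3g and the 4 of Dmbt1 was lower. One of them, Tacc2 beside Dmbt1, was higher (log2 2.16, FDR 1.85e-07).

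The BPI-fold cluster on chromosome 2 held genes that went in opposite directions. In its order, Bpifb6, Bpifb3, Bpifb4, Bpifa6, Bpifa2, Bpifa1, Bpifb1 and Bpifb9a follow each other, with other genes between some of them. Bpifa2, which encodes the parotid secretory protein of saliva and lies between Bpifb4 and Bpifa1, had 10036, 11319 and 10503 counts in KO 1 to 3, against 615, 455 and 579 in WT 1 to 3. It was 12.6-fold higher in KO (SE 0.136 on the log2 scale, FDR 1.51e-09). Bpifa6, next to it, had 5, 0 and 0 counts in KO and 47, 38 and 41 in WT (log2 fold change -5.23, FDR 2.50e-05). That value rests on the 5 counts of KO 1. No KO count is left without that library, and the value was -4.61 without KO 2 and -4.64 without KO 3.

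Over the whole BPI family, 5 of 8 other tested genes were lower in KO, 1 was higher and 2 did not pass. By the DESeq2 Wald test 4 were lower and 1 was higher. The shares among all tested genes were 8.48% lower and 9.15% higher. Bpifb9b and Bpifb9a, paralogs between which reads may be shared, had 3.26 ± 0.644 and 1.43 ± 0.0388 CPM in KO and 17.5 ± 3.80 and 7.65 ± 1.38 CPM in WT (log2 -2.44, SE 0.19, FDR 8.85e-06, and log2 -2.40, SE 0.19, FDR 1.43e-06). Bpifb3 was lower in KO by 2.87-fold (FDR 0.000177). Bpifb6 was lower by 4.51-fold (FDR 0.0206), but did not pass when KO 2 or WT 1 was left out (FDR 0.0797 and 0.0573) or by the DESeq2 Wald test (FDR 0.0803). Bpifb1, an airway mucus protein, had 1.40 CPM in KO and 2.42 CPM in WT and did not pass (FDR 0.0678).

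**Figure D2:**
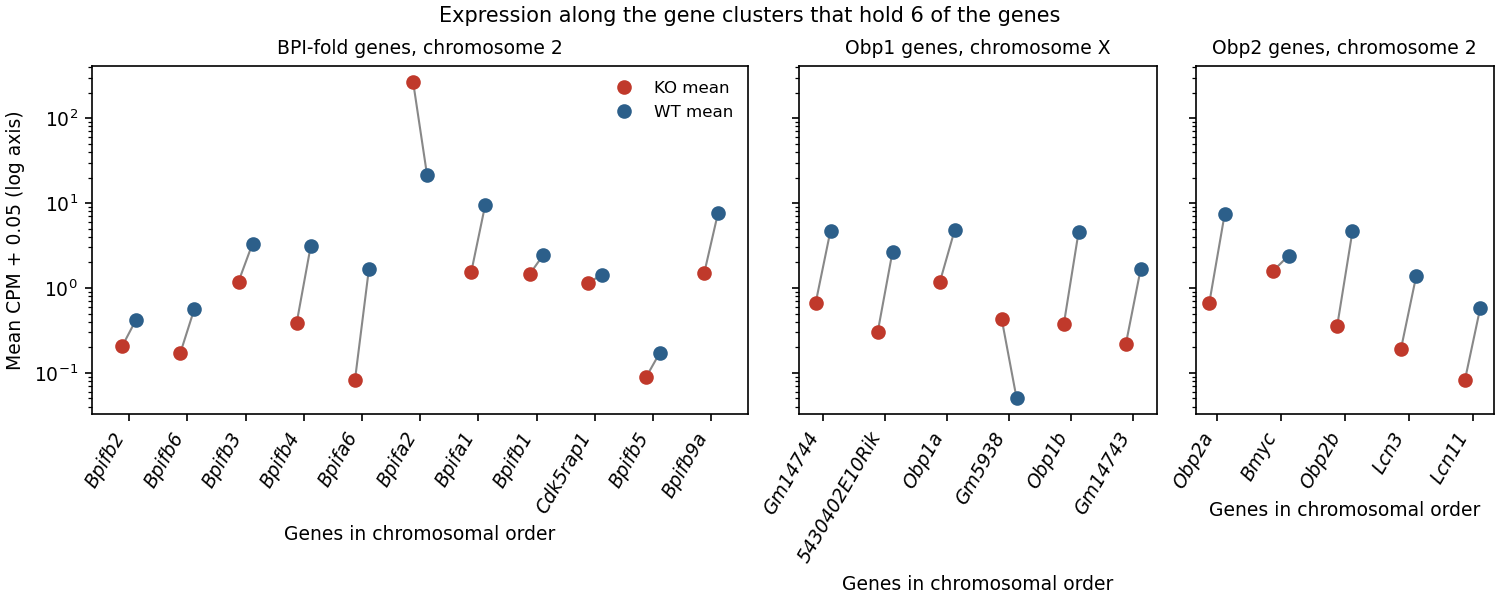
Mean CPM plus 0.05 (log axis) of KO (red, left) and WT (blue, right) for genes in chromosomal order along the BPI-fold, Obp1 and Obp2 clusters, genes without a value being left out. KO lies below WT at most positions, while Bpifa2 and Gm5938 have KO above WT.

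The Obp1 cluster on the X chromosome also held genes of both directions. Gm14744, 5430402E10Rik and Gm5938 lie there too and carry OBP names among their RefSeq synonyms, and Gm14743 lies beside Obp1b. Gm14744 had 27, 28 and 17 counts in KO and 121, 119 and 135 in WT (log2 -2.96, SE 0.23, FDR 1.40e-06). 5430402E10Rik had 20, 5 and 10 counts in KO and 75, 60 and 71 in WT (log2 -3.23, FDR 5.49e-05, and -3.82 without KO 1). Gm14743 had 11, 6 and 4 in KO and 49, 32 and 44 in WT (log2 -3.21, FDR 5.08e-05). Gm5938, between Obp1a and Obp1b, went the other way, with 18, 13 and 17 counts in KO and none in WT. With 3 counts in all taken as the limit for the WT group, Gm5938 was about 10.4-fold higher in KO (edgeR FDR 0.00239). Each read pair appears to give 2 counts, since 4.69 to 5.06 times as many genes had 2 counts as had 1 in a library. This limit is thus under 2 read pairs and the fold is approximate. A limit of 3 read pairs would give a smaller fold. Beside Obp2a and Obp2b, the lipocalin genes Lcn3 and Lcn11 were lower in KO and Bmyc, between the 2 Obp genes, was not called (log2 -0.59, FDR 0.0808).

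Of 5 other tested lipocalin genes of nasal and vomeronasal glands, 4 were lower in KO and none was higher (8.48% lower and 9.15% higher among all tested genes), and the median log2 fold change was -3.25. Lcn3, a lipocalin of vomeronasal and nasal glands, had 3, 6 and 8 counts in KO and 35, 35 and 38 in WT (9.48-fold lower in KO, FDR 9.76e-05). Lcn4 had 0, 2 and 6 counts in KO and 42, 20 and 21 in WT (log2 -4.04, FDR 0.000175, and -5.33 without KO 3). Lcn11 had 5, 0 and 0 in KO and 14, 9 and 19 in WT (log2 -3.65, FDR 0.00414). No KO count is left without KO 1, and the value was -3.04 without KO 3 and -3.01 without KO 2, where its call was lost (FDR 0.0555). Mup4, a major urinary protein, had 12, 18 and 12 counts in KO and 80, 61 and 74 in WT (7.73-fold lower in KO, FDR 8.75e-06). Its relative Mup5 had 0.636 CPM in KO and 0.683 CPM in WT (FDR 0.972). Mup genes are close copies of each other, so their split is uncertain.

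Among 16 other tested genes of olfactory sensory neurons, 4 were lower in KO (2 by the DESeq2 Wald test), none was higher and 12 did not pass, against 8.48% lower and 9.15% higher among all tested genes. Their median log2 fold change was -0.35, also with Umodl1 at its limit. At an unadjusted p under 0.05 the edgeR test gave 5 lower and 2 higher. The 2 higher ones were Ncam2 (log2 1.36, FDR 0.0904) and Rtp1 (log2 1.34, FDR 0.0957). The lower one that was not called was Kirrel2 (log2 -1.48, FDR 0.122). Umodl1, which encodes olfactorin, had no count in KO and 34, 27 and 45 in WT (edgeR FDR 1.43e-05). With 3 counts taken as the limit for the KO group, it was about 54.6-fold lower in KO. That limit is under 2 read pairs, and a limit of 3 read pairs would give a smaller fold. Stoml3, a stomatin-like protein of olfactory cilia and of touch neurons, had 3, 4 and 3 counts in KO and 34, 16 and 36 in WT (12.9-fold lower in KO, FDR 0.000127). Ebf3 and Ebf2, factors of the family whose palindrome stands in the Gfy promoter, were lower by less, with 5.74 and 1.39 CPM in KO and 8.21 and 2.40 CPM in WT (log2 -0.52, FDR 0.0158, and log2 -0.78, FDR 0.0244). Neither passed with KO 2 left out (FDR 0.158 for Ebf3 and 0.179 for Ebf2) or by DESeq2 (FDR 0.0927 and 0.141), and Ebf2 did not pass without KO 3 or WT 3 either (FDR 0.0869 and 0.0513). EBF factors are expressed in adipocytes and other mesenchymal cells as well.

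The transduction genes of olfactory neurons had few counts, and none of the tested ones, Gnal, Adcy3, Cnga2, Cngb1, Gng13 and Pde1c, passed. Of these, Cngb1 had a log2 of 0.09 (FDR 0.928), Gng13 of -1.01 (FDR 0.321) and Pde1c of -1.09 (FDR 0.192). Gnal, the G protein subunit of the pathway, had 43, 48 and 54 counts in KO and 25, 22 and 13 in WT (log2 0.61, FDR 0.190). Adcy3, its adenylyl cyclase, had 1.04 CPM in KO and 1.03 CPM in WT (FDR 0.986). The channel subunit Cnga2 had 11, 12 and 5 counts in KO and 9, 4 and 4 in WT (FDR 0.951), at a depth where a small difference was not detectable. The channel genes Cnga4 and Ano2 were below the filter on low counts, with 0 counts in every KO library, against 8, 4 and 5 (Cnga4) and 4, 6 and 6 (Ano2) in WT. With no filter both passed as lower in KO (edgeR FDR 0.0204 for Cnga4 and 0.0357 for Ano2). That fit gave far smaller FDRs for strongly changed genes, such as 1.79e-144 against 1.51e-09 with the filter for Bpifa2. Both calls also rest on few read pairs, so they are weak. These genes of the transduction pathway were named after their values had been seen.

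Few chemosensory receptor genes could be tested. Of 82 odorant, trace amine and vomeronasal receptor genes in the table, 4 had enough counts to test. Of these, 1 was higher in KO and 0 were lower (9.15% higher and 8.48% lower among all tested genes). The other 78 were below the filter on low counts, so the direction of the receptor families as a whole was not tested. Olfr78, an odorant receptor also known from vascular smooth muscle and the carotid body, had 357, 385 and 349 counts in KO and 138, 144 and 163 in WT (1.63-fold higher in KO, FDR 0.00573), a call lost without KO 2 (FDR 0.0705). Olfr558 had 3.62 CPM in KO and 3.22 CPM in WT and did not pass (FDR 0.597). Immature olfactory neuron genes gave 2 tested members. Gap43, a growth cone protein of growing axons of any kind, was higher in KO (log2 1.69, FDR 9.31e-05), and Gng8 did not pass (FDR 0.602).

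Of 10 tested genes of sustentacular cells and Bowman's glands, 7 were lower in KO (6 by the DESeq2 Wald test) and none was higher. The shares among all tested genes were 8.48% lower and 9.15% higher. The median log2 fold change of the list was -1.32. Sec14l3, of the Sec14 family of lipid-binding proteins, had 35, 14 and 11 counts in KO and 87, 81 and 69 in WT (6.24-fold lower in KO, FDR 1.99e-05; log2 -2.64, and -3.30 without KO 1). Ugt2a1, an olfactory glucuronosyltransferase that acts on odorants, had 13, 34 and 25 counts in KO and 92, 35 and 64 in WT (4.10-fold lower in KO, FDR 0.000601). The groups nearly met there in raw counts, since KO 2 had 34 and WT 2 had 35. These libraries differed in depth, with 4899680 nuclear counts in KO 2 and 2625472 in WT 2. The carbonyl reductase Cbr2 had 8.50 CPM in KO and 17.5 CPM in WT (log2 -1.03, FDR 0.00698, and FDR 0.0610 without WT 1). The sulfotransferase Sult1c1 had 2, 0 and 4 counts in KO and 17, 22 and 4 in WT (log2 -3.47, FDR 0.00506), with a log2 of -4.32 without KO 3 and of -2.82 without KO 2, where the call was lost (FDR 0.0568). KO 3 and WT 3 had the same raw count of Sult1c1, among 4676821 nuclear counts in KO 3 and 2969429 in WT 3. Cyp2f2, a cytochrome P450 of airway cells, had 14.2 CPM in KO and 12.1 CPM in WT and did not pass (FDR 0.198).

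Of 12 tested secretory genes of the respiratory epithelium, 3 were lower in KO, 1 was higher and 8 did not pass, with a median log2 fold change of -0.70. Among all tested genes 8.48% were lower and 9.15% higher, and the 3 lower genes became 1 without KO 2 and 1 without WT 1. Ltf, which encodes the iron-binding protein lactoferrin, had 1.02 ± 0.0612 CPM in KO and 2.70 ± 0.240 CPM in WT (2.64-fold lower in KO, FDR 0.000657). The gel-forming mucins Muc5b and Muc5ac were lower in KO (log2 -1.19, FDR 0.0102, and log2 -3.11, FDR 0.00809). Their calls were lost without KO 2 (FDR 0.0951 and 0.0733) and without WT 1 (FDR 0.0609 and 0.0748). Wfdc2, a secreted protein of many glandular epithelia, was higher in KO (log2 1.17, FDR 0.00202). Of 6 tested genes of multiciliated cells 0 passed in the edgeR quasi-likelihood test and 0 in the DESeq2 Wald test, and 1 had an unadjusted edgeR p under 0.05. That gene was Tekt1, a tektin of cilia, with a log2 of 0.71 (FDR 0.0783, and 0.0330 without KO 3). Ccdc39, another gene of cilia, had a log2 of 0.83 (FDR 0.227) and passed only with 6 separate libraries and the replicate block (log2 1.05, FDR 0.0439). Of 4 basal cell keratin and p63 genes 1 was lower, Krt5 (log2 -0.49, FDR 0.0199, and FDR 0.180 without KO 2).

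**Figure D3:**
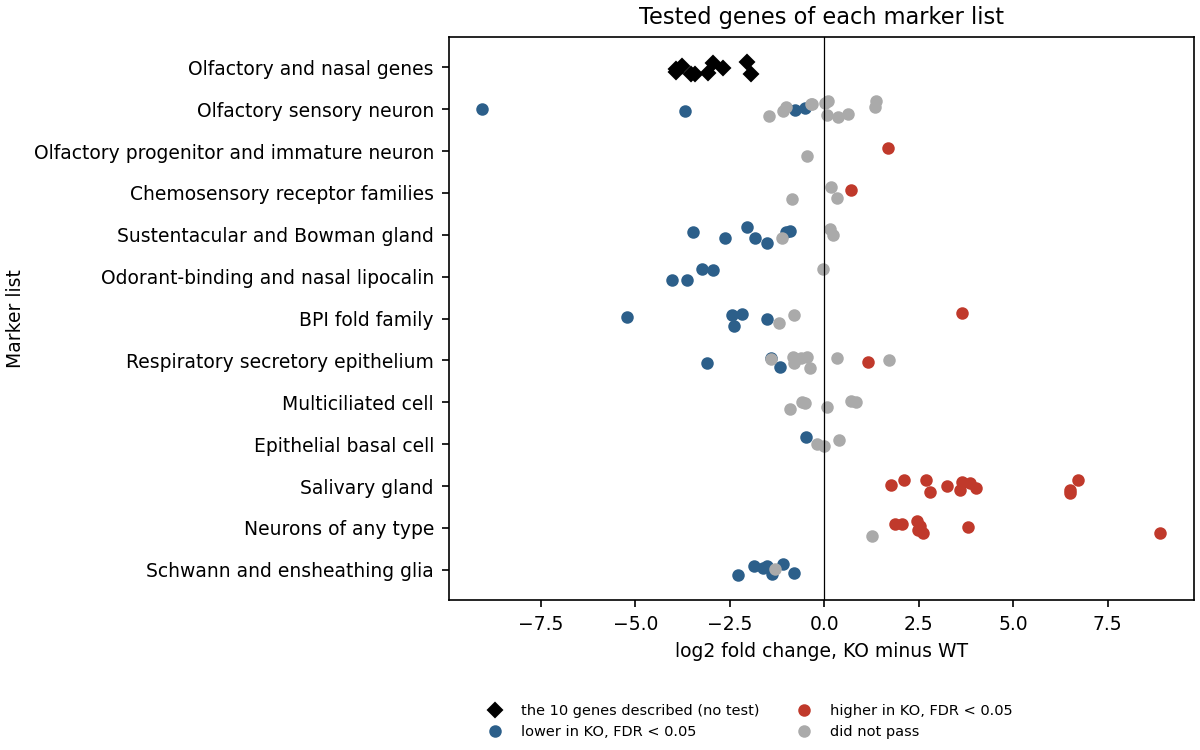
Log2 fold change (KO minus WT) of every tested gene in 13 marker lists, less 1 with no tested gene, with the 10 described genes on top as black diamonds that carry no test. Nasal lipocalin, BPI-fold and gland genes lie mostly left of 0, olfactory neuron and ciliated genes on both sides of it, and salivary and general neuronal genes to the right. Values of the genes without any count in 1 group (Umodl1, Elavl4 and Prol1) are fitted ones and no bounds.

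Markers of other tissues moved with the groups in the same libraries. For comparison, 9.15% of all tested genes were called higher in KO and 8.48% lower. The 12 salivary gland genes were all higher in KO, with a median log2 fold change of 3.62 (3.42 with Prol1, absent from WT, at its limit) and a summed level of 529 to 558 CPM in KO and 41.8 to 45.7 CPM in WT. The DESeq2 Wald test called 10 of them. Bpifa2, named above, belongs to both this list and the BPI family. Of 9 genes of neurons of any type 8 were higher in KO (37.8 to 43.7 CPM summed in KO, 7.36 to 8.99 CPM in WT), Omp and Gfy being lower in the same libraries. Of 8 tested genes of Schwann cells and olfactory ensheathing glia 7 were lower, with a summed level of 364 to 380 CPM in KO and 1057 to 1102 CPM in WT. Frzb, a secreted Wnt antagonist found in ensheathing glia among other cells, had 52, 42 and 53 counts in KO and 174, 137 and 139 in WT (log2 -2.28, FDR 3.24e-06). Of the genes of these 3 lists present in the table, 0 were at 0 counts in all 6 libraries. The part of these other tissues in the differences of the 10 genes was not tested.

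Within a group, the spread of the 10 genes between libraries was below counting noise in the median gene for most pairs. Each pair of libraries of 1 group gave 8 to 10 genes with at least 20 summed counts. Their median ratio of observed to counting variance was 2.01 in KO 2 and KO 3 and 1.51 in WT 1 and WT 2. In the other pairs it was 0.339 to 0.749. Over all such pairs, 2 variance ratios lay above the 95% point of counting noise. These were Obp1b between KO 1 and KO 3 and Bpifa1 between WT 1 and WT 3. Among this many comparisons some are expected above that point from counting noise alone, so neither is read as a difference. The largest coefficients of variation over the 2 samples were those of Reg3g, 49.4% in KO and 32.1% in WT. Each gene's share of the summed level of the 10 was compared too. Bpifa1 held 26.9% in KO and 21.2% in WT, Obp1a 19.8% in KO and 10.4% in WT, and Omp 11.1% in KO and 5.47% in WT. Obp1b held 5.75% in KO and 10.1% in WT, and Gfy 4.71% in KO and 8.53% in WT. What remained in KO was thus weighted towards Obp1a, Bpifa1 and Omp.

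The genes outside the set with a profile over the 6 libraries most like that of Omp or Obp2a were found by Pearson's r of log2(CPM + 1) among 10980 genes of at least 1 CPM. For Omp they were Gas2l3, Pld4, Chp2, Zeb1, Mal and Cpxm1, and for Obp2a they were Il33, Nrp1, Pmp22, H2-Eb1, Arhgap19 and Ugt8a, all with r of at least 0.9969. Since the 6 libraries fall into KO and WT and close pairs within them, r is given as a description only. Mal, Pmp22 and Ugt8a, which are myelin genes, had log2 fold changes of -1.51, -1.62 and -2.03, against -1.93 for Omp and -3.52 for Obp2a. The other genes found had values from -1.92 (Gas2l3) to -0.75 (Chp2). Their lower level in KO follows from the way all these genes were found, since Omp and Obp2a were chosen as low in KO.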

How the data were processed

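RNA of mouse temporomandibular joint was extracted with TRIzol and made into libraries with an mRNA isolation kit, per the labels' protocols. Per the submitters' processing notes, HISAT2 2.1.0 and StringTie 2.1.5 were used with build mm39. No source used here gives the annotation, the strand setting or the handling of reads with several matches. The authors deposited raw read counts per gene symbol, not normalized, for 22032 genes in 6 libraries. Groups and replicate numbers come from the sample titles.

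From the counts, library pairs of a group with a median ratio of observed to counting variance under 1.1 (nuclear genes with at least 20 summed counts, 2 counts per read pair) were summed and counted once, as KO 1+3 and WT 2+3. edgeR 4.0.16 in R 4.3.3 kept 14632 genes by filterByExpr (minimum count 10), scaled them by TMM (factors 1.22 and 1.20 in KO, 0.862 and 0.794 in WT) and fitted its quasi-likelihood model (robust) by group. A gene was called at an FDR (Benjamini-Hochberg, over all tested genes) under 0.05. CPM carry the TMM factors, log2 fold changes are KO minus WT, and SE is the absolute change over the square root of F. Means ± SD are over the 2 samples of a group. The fit was tested on simulated data. Gene lengths are those of the longest GENCODE M21 transcript. Promoter windows, gene order and synonyms are from RefSeq GRCm38.p6, another build than that of the files, and were joined by symbol.

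The 10 genes and the 13 lists were chosen with earlier results of these data known. Genes are named by this rule: the 10 genes, Igf2bp2, up to 4 tested genes of smallest p and the most abundant one of each list, and the 6 genes most like Omp and Obp2a. Chromosomal neighbours, both promoter motifs and any other gene, such as Bpifb1, Bpifb3, Bpifb6 and the joint markers, were named after their values were seen. Alternatives were DESeq2 size factors, nuclear genes only, no filter, the DESeq2 1.42.0 Wald test, 6 separate libraries, these with the replicate number as a block, and leaving out each library.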

Additional observations from a re-analysis of the deposited data

How the results depend on the processing

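All 10 genes were lower in KO under the 12 alternatives (DESeq2 size factors, nuclear genes only, no filter, the DESeq2 Wald test, 6 separate libraries, these with a replicate block, and each library left out), with a median log2 fold change of -3.356 to -2.999 when 1 library was left out. Over all genes 2580 were called, 1241 of them lower in KO. The DESeq2 Wald test called 1634 and 738, and leaving out 1 library gave 1149 to 2434 and 533 to 1187, the lowest counts without KO 2. Leaving out KO 2 or WT 1 leaves 1 sample in that group, assumed to vary like those of the other group; without WT 1 the counts were 2396 and 1048. Of the olfactory neuron genes 4 were lower, against 2 by the DESeq2 Wald test 2 to 4 with 1 library left out and 6 with no filter. With 6 separate libraries 3452 genes were called, and 2941 with the replicate block. Replicate numbers did not pair the libraries: same-numbered KO and WT libraries had correlations of their deviations of -0.11, -0.14 and 0.08. Lower lipocalin genes numbered 3 to 4 and lower BPI-fold genes 4 to 5 with 1 library left out, against 4 and 5. Lower respiratory secretory genes numbered 1 to 3, against 3. Depth limits the set, since KO libraries held 4 to 64 counts of each gene.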
